A study of Mus musculus with 27 samples.

Results

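The nuclear genes for oxidative phosphorylation were examined as a set in mouse Ba/F3 cells. They were chosen by symbol: all rows of the count tables starting with Nduf, Sdha to Sdhd, Uqcr, Cox4i, Cox5, Cox6, Cox7, Cox8 or Atp5, leaving out symbols ending in -ps or -rs. This rule took 92 of 24000 genes, and 86 of them passed the filter on low counts that left 12073 genes for testing. No expression value entered the rule. The prefixes also take in a few genes that are not subunits. These are 7 complex I assembly factors (Ndufaf1 to Ndufaf7), the supercomplex factor Cox7a2l, and Atp5s and Atp5sl, which take part in assembly rather than in the enzymes themselves. The 13 subunits encoded in mitochondrial DNA are not among the gene symbols used here, so all values describe the nuclear share of the respiratory chain.

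The respiratory chain passes electrons from NADH (complex I) and succinate (complex II) through complex III to complex IV, which reduces oxygen. Complexes I, III and IV pump protons across the inner mitochondrial membrane, and complex V, the ATP synthase, uses the gradient to make ATP. Most subunits are encoded in the nucleus and must match the few made inside mitochondria. Their promoters are known for sites of the nuclear respiratory factor NRF1 and of ETS-family factors. In IL3-dependent blood cells the cytokine sustains survival, nutrient uptake and growth, and its withdrawal lowers energy metabolism.

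Ba/F3 is an IL3-dependent mouse pro-B cell line. PolyA RNA was sequenced in 27 libraries of 7 groups. All came from cells routinely grown with 1 ng/mL IL3 and then kept without IL3 for 6 h. Wild-type cells were either taken then (5 libraries) or given 10 ng/mL IL3 for a further 30 min (5 libraries). The other groups all received that IL3 pulse after lentiviral delivery of a short hairpin and puromycin selection: a No-Target hairpin (5 libraries), or hairpins against STAT5A, STAT5B, LSD1 or HDAC3 (3 libraries each). STAT5A and STAT5B are the transcription factors that IL3 activates, LSD1 (gene Kdm1a) removes methyl groups from histones, and HDAC3 removes acetyl groups. The cells of all hairpin groups carry a lentiviral insert, and wild type does not.

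The targeted genes were lower in their knockdowns, by edgeR's quasi-likelihood test over all genes. Mean levels were 35.9% of the No-Target mean for Stat5a (adjusted p = 2.54e-04), 28.5% for Stat5b (9.83e-07), 53.0% for Kdm1a (1.26e-03) and 44.3% for Hdac3 (0.0130), with no overlap of the libraries in any of the 4. Depth ran from 5.48 to 33.8 M reads counted in genes. Of 12 pro-B markers, 10 stayed under 1 CPM (reads of a gene scaled to a fixed library size) in every library. Only Cd79a and Cd79b were measurable, so most of these markers do not bear out the pro-B name, which is that of the line. Summed myeloid markers spanned 6.50 to 95.6 CPM in No-Target libraries, 36.2 to 264 under STAT5A, 67.4 to 396 under STAT5B, 113 to 291 under LSD1 and 6.41 to 24.9 under HDAC3 knockdown. Only 6 of 9 measured myeloid markers were tested, and 1 was called in each STAT5 knockdown: Cd14 (log2 fold change 6.51 ± 1.26 SE, adjusted p = 0.0459) under STAT5A and Lyz2 (1.23 ± 0.27, adjusted p = 0.0454) under STAT5B. The part of these cells or markers in the values below was not tested.

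The respiratory chain genes separated the libraries before any comparison between groups was made. Together the 92 genes took 2.44 ± 0.46% (SD, n = 5) of counted reads in IL3-deprived wild type and 2.10 ± 0.13% (n = 5) in stimulated wild type. The share was 1.71 ± 0.36% (n = 5) in No-Target cells, 1.91 ± 0.12% under STAT5A, 1.94 ± 0.19% under STAT5B, 1.71 ± 0.47% under LSD1 and 1.36 ± 0.36% under HDAC3 knockdown (n = 3 each). The widest 95% Wilson interval of any library's share was 0.0195 percentage points, so counting error is small beside the spread between replicates.

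**Figure D1:**
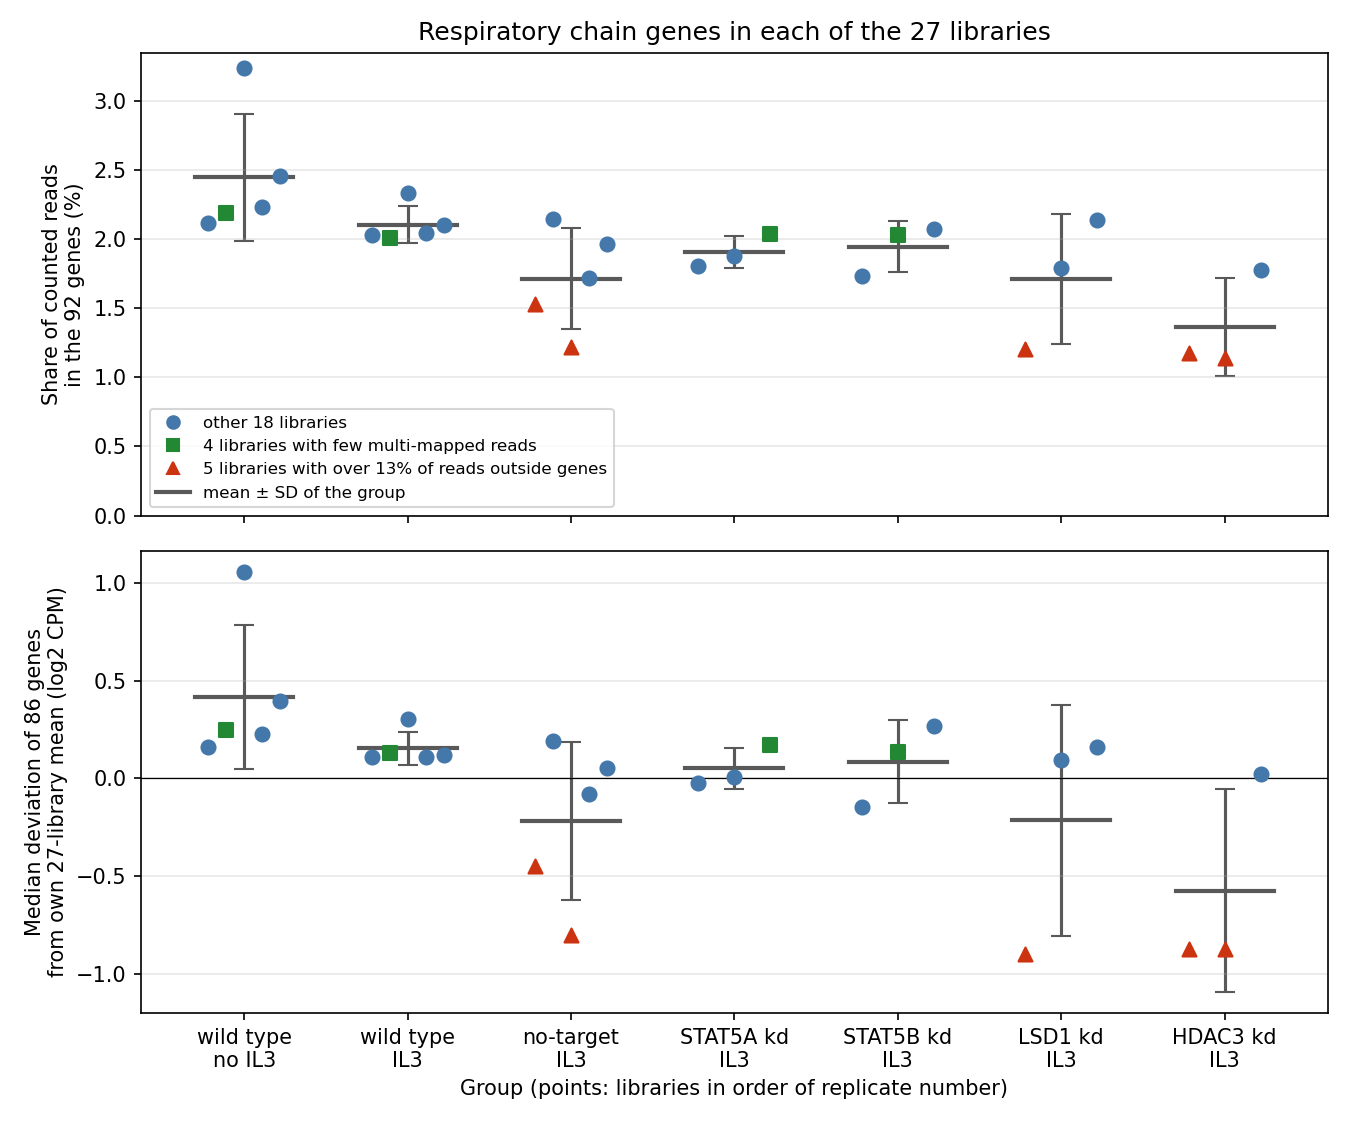
Share of counted reads in the 92 respiratory chain genes (upper panel, percent) and median deviation of the 86 tested genes from their own means over 27 libraries (lower panel, log2 CPM), per library and group (kd, knockdown). Bars and whiskers are mean ± SD. The 5 red libraries hold 1.14 to 1.53%, below all 22 others (1.71 to 3.23%), and the third deprived wild-type library stands highest.

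Low shares went with many reads outside genes, while the high share of deprived wild-type replicate 3 (3.23%, with 9.98% of reads outside genes) did not. That replicate stood out in other properties. It had the most reads aligned to several places per counted read of all libraries (0.295) and the lowest trimmed-mean scaling factor (0.853). In 5 libraries more than 13% of reads lay outside genes, as a share of counted reads and reads outside genes together (14.2 to 25.1%, against 8.82 to 12.1% in the other 22). They are No-Target replicates 1 and 3, LSD1 replicate 1 and HDAC3 replicates 1 and 2, and they are also the shallowest (5.48 to 7.53 M). In each of them, 83 to 85 of the 86 genes lay below the mean of those libraries of the same group that are not among the 5. For HDAC3 this reference is replicate 3 alone. The median differences on the log2(CPM + 0.5) scale were -0.51 and -0.85 in the No-Target libraries, -1.03 in the LSD1 library, and -0.90 and -0.99 in the HDAC3 libraries. The median over all genes tested lay between -0.04 and -0.02 in the same 5 libraries.

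The genes were not alike in this. Shorter transcripts lay lower: the median difference was -1.03 over the 44 genes under 1000 bp of exon and -0.73 over the 42 longer ones (Spearman's rho with length 0.62 over 86 genes, which share the same libraries). Atp5e, the epsilon subunit of the ATP synthase, was lowest (median -1.35 over the 5 libraries; named after its value was seen). Ndufs1, a long transcript for the largest iron-sulfur subunit of complex I, went the other way and was higher in 5 of 5 libraries, by 0.12 to 0.38. Its exons share 489 bp with the antisense gene Ino80dos, and the kit does not mark strand. Because of this division, the median of each comparison below is given with all libraries and without these 5. None of the 5 is wild type, so leaving them out removes no library from the IL3 comparison. It can alter that comparison only through the shared fit. Whether the reads outside genes or the depth set these levels was not tested. In bulk RNA, fewer cells of a kind and less RNA per cell cannot be told apart.

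Levels between genes were compared as CPM per kb of exon, averaged over the 7 group means. Complex IV had the highest median (308 CPM per kb over 15 tested genes), followed by complex V (245 over 17) and complex III (211 over 8). Grouped by name, complex IV here includes Cox7a2l, and complex V includes Atp5s and Atp5sl. The core of complex I (117 over 7 genes), its supernumerary subunits (120 over 28) and complex II (118 over 4) were close to each other. The complex I assembly factors, which build the enzyme and then leave it, stood far lower at 15.5 (7 genes).

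**Figure D2:**
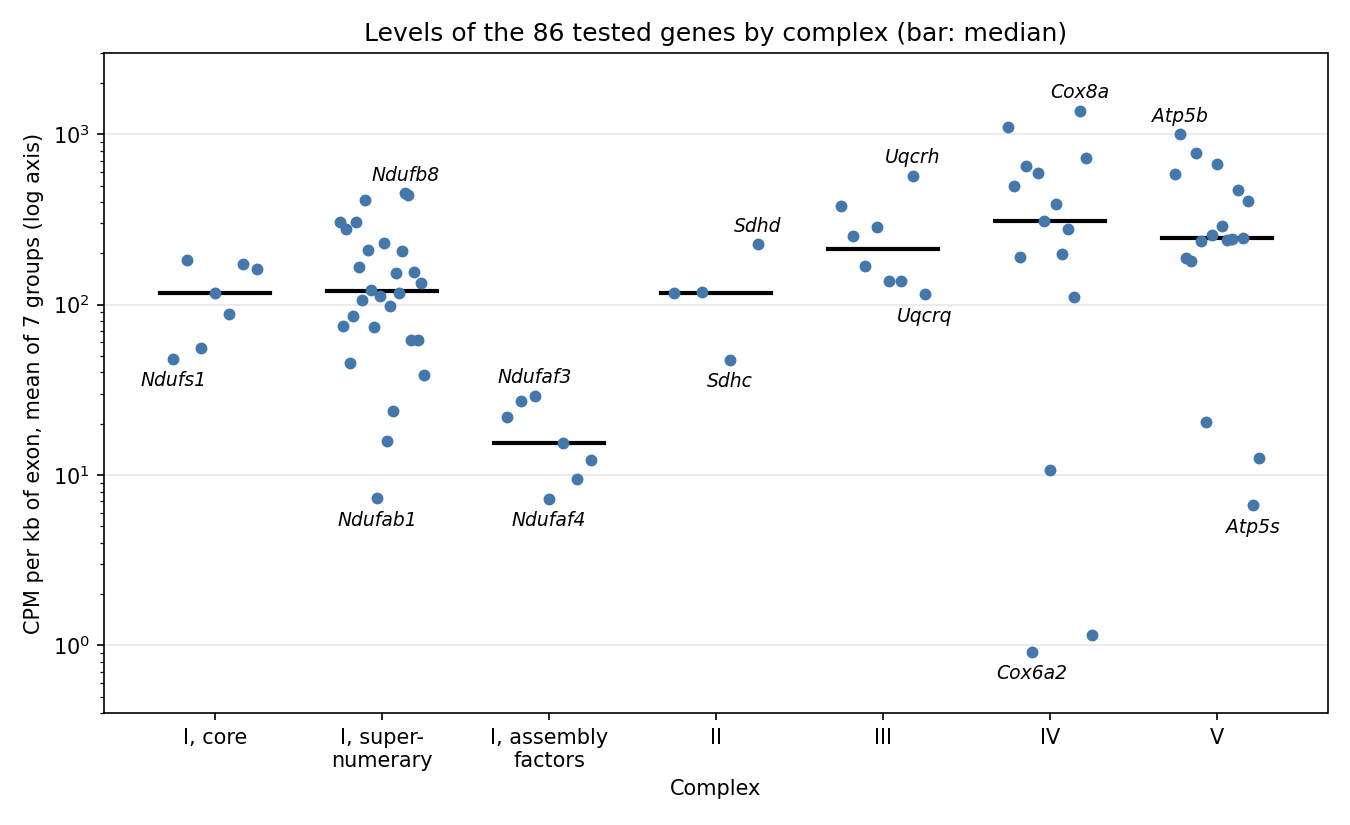
Level of each of the 86 tested genes in CPM per kb of exon (mean of 7 group means, log axis) by complex; bars are medians. The medians of complexes III, IV and V lie above those of complexes I and II, and the 7 assembly factors have the lowest median, with Cox6a2, Ndufa4l2 and Atp5s below all 7 of them.

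Within complex I, the core subunit Ndufs1 stood at 48.3 CPM per kb. Among supernumerary subunits the range ran from Ndufb8 (452) to Ndufab1 (7.29), the mitochondrial acyl carrier protein, whose annotated transcript is long. The assembly factors Ndufaf3 (29.3) and Ndufaf4 (7.27) bounded their class. In complex II, which also works in the citric acid cycle, the membrane anchor Sdhd reached 227, the iron-sulfur subunit Sdhb 118, the flavoprotein Sdha 117 and the other anchor Sdhc 47.2.

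In complex III, the hinge protein gene Uqcrh led (572) and Uqcrq, a small ubiquinone-binding subunit, was lowest (115). Cox8a was the highest of all 86 genes at 1379 CPM per kb, followed by Cox4i1 at 1111. Atp5b, the catalytic beta subunit of the ATP synthase, was the highest of complex V at 1000. These ranks depend on transcript length. With all annotated exons in place of the principal transcripts, Cox8a and Cox4i1 kept ranks 1 and 2, while Ndufb8 moved from rank 13 to 42.

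Several subunits have isoforms for particular tissues, and Ba/F3 cells expressed the general form in each pair. Cox6a1 stood at 655 CPM per kb against 0.918 for the muscle form Cox6a2. Cox7a2 stood at 391 against 10.8 for the muscle form Cox7a1, and the supercomplex factor Cox7a2l at 198. Ndufa4, now placed in complex IV, stood at 722 against 1.16 for its hypoxia-related paralogue Ndufa4l2. Cox6b1 (593) and Cox7b (277) were the measured forms of their pairs.

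The remaining isoforms failed the filter. Cox4i2, the lung and hypoxia form, had 38 reads over all 27 libraries, the testis form Cox6b2 had 77, the muscle form Cox8b 4 and the testis form Cox8c 4. Cox7b2, another testis form, had 0 reads in every library, which allows up to 3 counts per library. The ATP synthase c-subunit genes Atp5g1, Atp5g2 and Atp5g3, which encode the same mature protein, stood at 20.4, 257 and 666 CPM per kb, with Atp5g1 carrying the longest annotated exons (4912 bp).

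The effect of the IL3 pulse was measured in wild type, stimulated against deprived. Across all genes, 461 of 12073 were called at an adjusted p under 0.05 (3.82%; 362 higher and 99 lower). Among the 86 respiratory chain genes 1 was called, which is a share below that background. At an unadjusted p under 0.05 there were 1 higher and 3 lower, beside 8.66% and 5.34% of all genes. The called gene was Ndufaf4, an assembly factor of complex I at chr4:24898083-24905001 (GRCm38, plus strand), which rose.

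Ndufaf4 stood at 17.02, 16.2, 22.9, 14.0 and 13.8 CPM in deprived replicates 1 to 5 and at 19.9, 29.2, 32.6, 40.4 and 30.8 CPM in stimulated replicates 1 to 5. The log2 fold change was 0.86 ± 0.23 (SE; edgeR's quasi-likelihood test, Benjamini-Hochberg adjusted p = 0.0354). The stimulated libraries were higher in 5 of 5 same-numbered pairs, although the ranges met: stimulated replicate 1 lay below deprived replicate 3. With the replicate number as a block, Ndufaf4 had an adjusted p of 0.0163 (log2 fold change 0.84), and 2 further genes passed, Atp5sl (-0.32, adjusted p = 0.0323) and Ndufa7, a supernumerary complex I subunit (-0.35, adjusted p = 0.0470). Leaving out each of the 10 wild-type libraries in turn ended the call in 8 cases, with adjusted p from 0.0117 to 0.131.

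**Figure D3:**
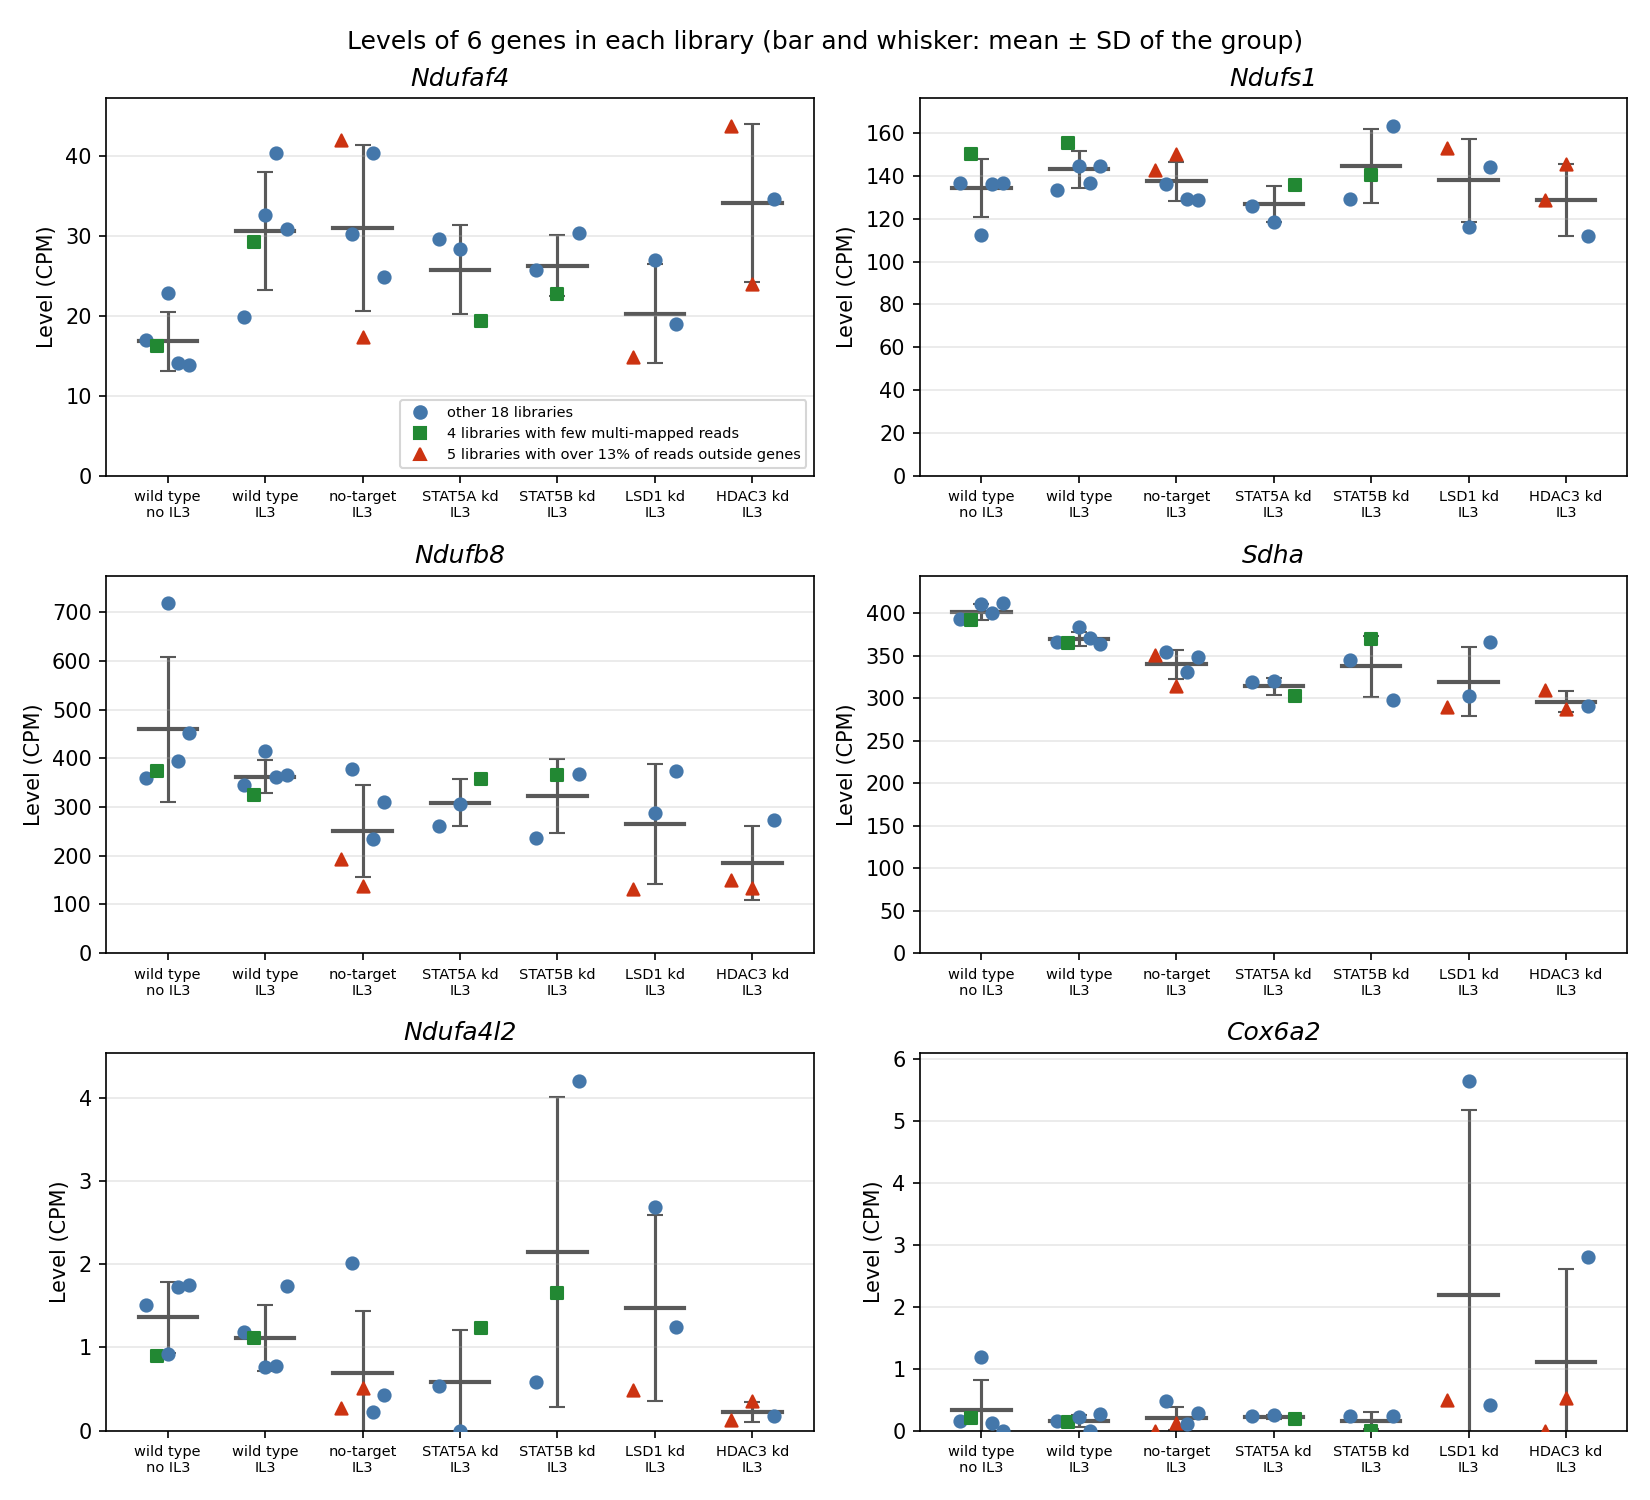
Levels of 6 genes in CPM in each of the 27 libraries by group (kd, knockdown); bars and whiskers are mean ± SD and colours mark the library classes. Ndufaf4 is lowest in deprived wild type, Ndufb8 follows the library classes, Ndufs1 and Sdha vary little, and Cox6a2 and Ndufa4l2 are near 0 in most libraries.

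The promoter of Ndufaf4 is shown because it is the only gene of the set that was called, and because it holds the full NRF1 letters. Promoters were matched in RefSeq (GRCm38.p6) for 76 of the 92 genes, and the 250 bases before the annotated start were searched on both strands. The NRF1 palindrome, which is GCGCATGC followed by GC, was present in 5 of 76 genes (6.58%) against 0.877% of all 27025 genes with a promoter. GCGCATGC alone, which the palindrome contains, was in 9 (11.8% against 2.56%). The ETS letters CCGGAAG were in 13 (17.1% against 7.83%) and the E-box CACGTG in 7 (9.21% against 6.86%). The cyclic AMP element TGACGTCA was in 4 (5.26% against 1.77%) and the YY1 motif in 1 (1.32% against 0.248%). The 27025 genes are not limited to the 12073 tested here, so these shares do not set the genes apart from other expressed genes.

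In Ndufaf4 the palindrome began 113 bases before the start. The windows around it in the 5 genes are printed on the strand of the gene, 5′ to 3′, with the palindrome in capitals.
Ndufaf4 (chr4:24897945-24898004, plus strand): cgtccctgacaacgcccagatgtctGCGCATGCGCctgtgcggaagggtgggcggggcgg
Ndufa11 (chr17:56717677-56717736, plus strand): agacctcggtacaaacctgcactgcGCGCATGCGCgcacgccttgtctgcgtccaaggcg
Atp5g2 (chr15:102671055-102671114, minus strand): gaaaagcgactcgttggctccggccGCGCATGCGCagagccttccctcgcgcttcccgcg
Atp5k (chr5:108434415-108434474, minus strand): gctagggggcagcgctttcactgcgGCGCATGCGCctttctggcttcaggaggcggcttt
Cox6a1 (chr5:115349086-115349145, minus strand): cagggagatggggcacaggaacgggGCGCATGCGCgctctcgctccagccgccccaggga
A match of letters is a description and not a measured binding site. The other 4 genes with these letters did not pass the test after IL3. Their log2 fold changes were -0.47 ± 0.29 for Ndufa11, -0.17 ± 0.25 for Atp5g2, -0.67 ± 0.32 for Atp5k and -0.44 ± 0.30 for Cox6a1, all below 0.

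Apart from Ndufaf4, the set lay slightly below the deprived level after IL3. The log2 fold change was below 0 for 83 of 86 genes with a median of -0.33, against 53.0% and -0.02 over all genes. Medians were -0.32 for the complex I core, -0.36 for its supernumerary subunits (28 of 28 below 0), -0.25 for the assembly factors, -0.11 for complex II, -0.29 for complex III, -0.31 for complex IV and -0.26 for complex V. No gene below 0 passed the test in the fit of all libraries without a block.

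The size of that shift rested on 1 library. Per same-numbered pair the median difference was -0.05, -0.13, -0.78, -0.12 and -0.28, and without deprived replicate 3 the median was -0.11. The direction was shared by all pairs: 68 of 86 genes (79.1%) were lower in all 5 pairs, against 2812 of 12073 genes (23.3%). Summed erythroid markers moved with it, at 169 to 318 CPM in deprived and 95.9 to 201 CPM in stimulated libraries (3 of 8 tested, 0 called), and their part in the result was not tested.

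Ndufb8 shows the pattern of most subunits. It stood at 360, 373, 718, 394 and 452 CPM in deprived and at 345, 324, 415, 362 and 366 CPM in stimulated replicates (log2 fold change -0.34 ± 0.27, adjusted p = 0.627). Deprived replicate 3 was by far the highest and the groups overlapped.

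In 3 genes the stimulated libraries all lay below the deprived ones, beside 4.51% of all genes, and in 0 genes above them, beside 6.73%. Values are given for 2 of the 3. Sdha stood at 394, 392, 411, 401 and 412 CPM in deprived and 366, 365, 384, 371 and 364 CPM in stimulated replicates (-0.12 ± 0.09, adjusted p = 0.590). Ndufa13, a supernumerary subunit also known as a cell death factor, stood at 131, 135, 282, 133 and 180.0 CPM against 124, 123, 112, 122 and 125 CPM (-0.51 ± 0.28, adjusted p = 0.450). The separation was narrow for Sdha, with the highest stimulated library at 384 CPM and the lowest deprived library at 392 CPM. In Ndufa13 the size of the difference came largely from deprived replicates 3 and 5. These 2 genes lie at chr13:74322254-74350280 (Sdha) and chr8:69894180-69902558 (Ndufa13), on the minus strand of GRCm38. Exons of Ndufa13 share 375 bp with Tssk6, on the opposite strand.

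**Figure D4:**
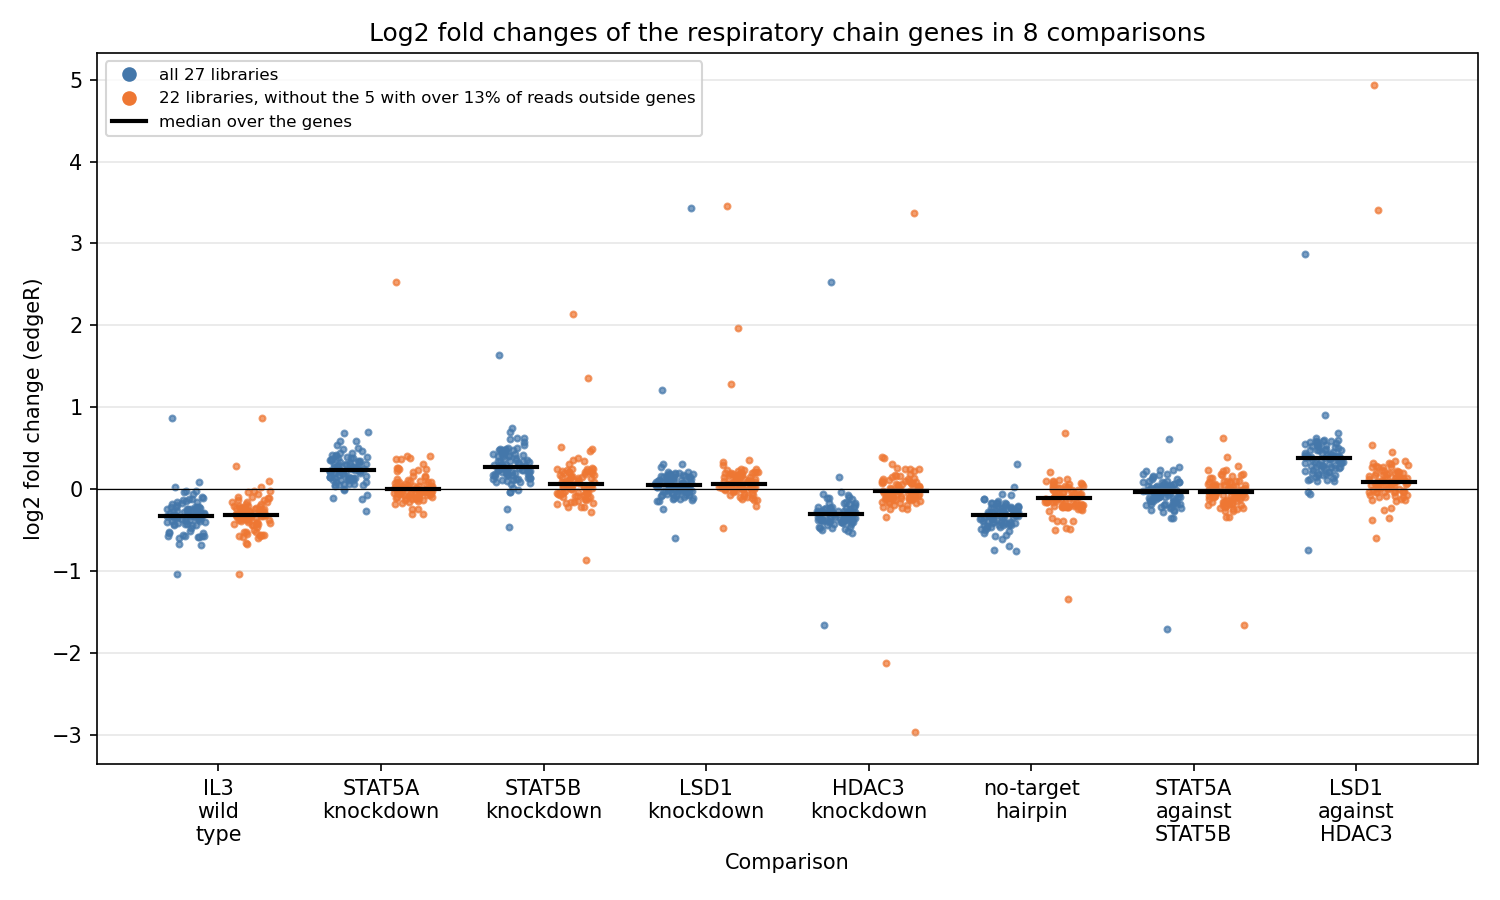
Log2 fold changes (edgeR) of the tested respiratory chain genes in 8 comparisons with all 27 libraries (blue) and with the 22 libraries left after removing those with over 13% of reads outside genes (orange); bars are medians. The medians under STAT5A, STAT5B and HDAC3 knockdown, in LSD1 against HDAC3 and in the No-Target comparison move towards 0. The LSD1 median is 0.04 and 0.06, and the IL3 median is -0.33 and -0.32. None of the removed libraries is wild type, so the IL3 comparison has the same libraries in both settings.

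The STAT5A and STAT5B knockdowns were each compared with the same 5 No-Target libraries. No respiratory chain gene was called in either, by edgeR or by DESeq2, against 0.0663% of all genes under STAT5A and 0.34% under STAT5B by edgeR. At an unadjusted p under 0.05 there was 1 gene higher and 0 lower under STAT5A, beside 3.49% and 4.93% of all genes. Under STAT5B there were 5 higher and 0 lower, beside 7.75% and 8.19%. The median log2 fold change was 0.23 with 80 of 86 genes above 0 under STAT5A, and 0.27 with 81 above 0 under STAT5B; all-gene medians were 0.00 and -0.01.

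Both medians were near 0 without the 5 libraries, of which 2 are No-Target controls: 0.00 under STAT5A and 0.06 under STAT5B. With only the 18 libraries that remain after also leaving out 4 described below, they were -0.08 and 0.01. Without No-Target replicate 3 alone they were 0.11 and 0.17, and without No-Target replicate 2 alone 0.36 and 0.40. By complex, the STAT5A medians ran from 0.09 (complex II) to 0.30 (complex V) with all libraries, and the STAT5B medians from 0.20 (assembly factors) to 0.35 (complex V).

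Under STAT5A knockdown, 3 genes lay above the controls without overlap, beside 2.52% of all genes, and 0 lay below them, beside 2.28%. Atp5s stood at 13.1, 12.99 and 10.8 CPM against 7.56, 8.05, 8.36, 10.8 and 9.50 CPM in No-Target cells (0.47 ± 0.16, adjusted p = 0.520). Ndufa4 stood at 490.1, 487 and 533 CPM against 298, 481, 261, 444 and 472 CPM (0.36 ± 0.25, adjusted p = 0.618). Atp5l, a membrane subunit of the ATP synthase, stood at 139, 143 and 234 CPM against 68.3, 129, 71.6, 130 and 132 CPM (0.70 ± 0.36, adjusted p = 0.566). All 3 were narrow: the nearest control lay just under the lowest knockdown library. The low controls of Ndufa4 and Atp5l were No-Target replicates 1 and 3. The 234 CPM of Atp5l was in STAT5A replicate 3, 1 of the 4 libraries described below, in which this gene stood high.

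Under STAT5B knockdown 2 genes lay above the controls without overlap and 0 below, beside 2.91% and 2.82% of all genes. Atp5sl, known for its part in assembling the membrane arm of complex I, stood at 40.9, 42.5 and 64.0 CPM against 28.5, 35.2, 23.1, 31.3 and 40.3 CPM (0.63 ± 0.20, adjusted p = 0.174, the smallest of the set in this comparison). Sdhd stood at 303, 311 and 349 CPM against 213, 299.6, 215, 282 and 288 CPM (0.31 ± 0.16, adjusted p = 0.345). Ndufa4l2 had the largest fold change (1.64 ± 0.71, adjusted p = 0.285) from 0.586, 1.65 and 4.20 CPM against 0.270, 2.01, 0.507, 0.226 and 0.432 CPM. Its groups overlapped and replicate 3 carried the difference in means.

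The STAT5A and STAT5B knockdowns were also set against each other. Neither edgeR nor DESeq2 called any of the 86 (edgeR called 0.0248% of all genes). At an unadjusted p under 0.05 there were 0 higher and 1 lower, beside 1.64% and 1.75%. The median difference was -0.04 with all libraries and without the 5, none of which is compared here, and it changed sign when STAT5B replicate 3 was left out (0.04). In 3 genes STAT5A lay higher without overlap (3.4% of all genes did): Ndufa6 (268, 318 and 252 CPM against 230.3, 237 and 246), Cox7a2 (274, 279 and 313 against 239, 269 and 254) and Ndufa1 (141, 144 and 144 against 125, 135 and 118). Sdhd was the only one lower without overlap, at 278, 263 and 298 CPM against 303, 311 and 349 CPM (-0.20 ± 0.18, adjusted p = 1.000). The margins were small, and 3.68% of all genes lay lower in this way.

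The LSD1 and HDAC3 knockdowns were compared with those same No-Target libraries. Under LSD1 knockdown the set lay near the control level. No gene was called by edgeR or DESeq2 (0.166% of all genes by edgeR), and 1 was higher and 1 lower at an unadjusted p under 0.05, beside 4.39% and 2.32%. The median log2 fold change was 0.04 with 56 of 86 genes above 0, and 0.06 without the 5 libraries. It ranged from -0.13 to 0.32 when single libraries were left out, with LSD1 replicates 3 and 1 giving these ends. No gene separated the groups without overlap (1.71% of all genes did so higher and 1.09% lower).

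The 2 genes at an unadjusted p under 0.05 were Cox6a2 and Ndufaf4. Cox6a2 stood at 0.490, 5.65 and 0.413 CPM under LSD1 knockdown and at 0, 0.474, 0.127, 0.113 and 0.288 CPM in No-Target cells (3.43 ± 1.05, adjusted p = 0.320). Replicate 2, with 82 reads, carried this value, since replicates 1 and 3 had 3 and 9 reads. HDAC3 knockdown showed the same form, with 0, 0.528 and 2.81 CPM and 32 reads in replicate 3. Exons of Cox6a2 share 70 bp with Itgad, a myeloid integrin gene on the opposite strand, and without strand information reads in that stretch cannot be told apart.

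Ndufaf4, the gene that rose with IL3, stood at 14.9, 26.99 and 19.0 CPM under LSD1 knockdown and at 42.0, 30.2, 17.4, 40.4 and 24.8 CPM in No-Target cells (-0.60 ± 0.28, adjusted p = 0.697). The groups overlapped widely. Its levels were 29.6, 28.3 and 19.4 CPM under STAT5A (-0.27 ± 0.27), 25.7, 22.8 and 30.4 CPM under STAT5B (-0.24 ± 0.27) and 43.8, 23.9 and 34.6 CPM under HDAC3 knockdown (0.14 ± 0.27), with adjusted p of 0.724, 0.649 and 0.912. None of these passed the test. No-Target cells, which had IL3, did not separate from stimulated wild type for this gene (0.02 ± 0.23, adjusted p = 0.969).

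The HDAC3 knockdown had the lowest values of the set, and 2 of its 3 libraries are among the 5 with many reads outside genes. No gene was called by edgeR or DESeq2 (0.0248% of all genes by edgeR), and 1 was higher and 1 lower at an unadjusted p under 0.05, beside 2.48% and 3.21%. The median log2 fold change was -0.31 with 84 of 86 genes below 0, beside an all-gene median of 0.00. Without the 5 libraries it was -0.03, with 1 HDAC3 library left. Leaving out HDAC3 replicate 3 gave -0.69 and leaving out replicate 2 gave -0.16.

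Ndufb8 stood at 149, 133 and 272 CPM under HDAC3 knockdown and at 193, 377, 138, 234 and 309 CPM in No-Target cells (-0.43 ± 0.32, adjusted p = 0.871). The low values in both groups were those of the 5 libraries, and HDAC3 replicate 3 lay among the other controls. Sdha was the only gene of the set lower without overlap, beside 1.59% of all genes, and 0 were higher, beside 0.861%. It stood at 309.9, 287 and 291 CPM against 351, 355, 315, 331 and 348 CPM (-0.20 ± 0.10, adjusted p = 0.865). Sdha moves little with the library classes, and HDAC3 replicate 3 was also low (291 CPM).

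Setting LSD1 against HDAC3 knockdown, the median difference was 0.37 with 83 of 86 genes above 0, and 0.08 without the 5 libraries. It was 0.18 without LSD1 replicate 3 and 0.78 without HDAC3 replicate 3. Neither edgeR nor DESeq2 called any of these genes (edgeR called 0.82% of all genes). At an unadjusted p under 0.05 there were 4 higher and 1 lower, beside 7.37% and 6.87%. In 3 genes LSD1 lay higher without overlap and in 0 genes lower, beside 5.69% and 4.82% of all genes. Atp5s stood at 7.998, 11.2 and 10.6 CPM against 6.08, 7.92 and 7.46 CPM (0.48 ± 0.19, adjusted p = 0.235). Uqcrc2, a core protein of complex III, stood at 232, 246 and 293 CPM against 185, 206 and 223 CPM (0.33 ± 0.13, adjusted p = 0.244). Ndufa4l2 stood at 0.490, 2.69 and 1.24 CPM against 0.124, 0.352 and 0.176 CPM (2.87 ± 1.01, adjusted p = 0.183), from 1 to 2 reads per HDAC3 library. Exons of Uqcrc2 share 504 bp with Pdzd9, on the opposite strand.

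The No-Target hairpin was compared with stimulated wild type, which differs from it in the vector and the selection. No respiratory chain gene was called, and none of the 12073 genes was (0%), by edgeR; DESeq2 called no respiratory chain gene either. At an unadjusted p under 0.05 there were 0 higher and 10 lower, beside 11.1% and 5.86% of all genes. The median was -0.32 with 84 of 86 genes below 0, and -0.11 without the 5 libraries, 2 of which are No-Target. Without No-Target replicate 3 alone it was -0.21. In 9 genes No-Target lay lower without overlap and in 0 higher, beside 3% and 2.35% of all genes.

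Ndufb7, a supernumerary complex I subunit, stood at 77.9, 134, 50.7, 94.3 and 107 CPM in No-Target cells and at 146, 141, 154, 164 and 174 CPM in wild type (-0.75 ± 0.32, adjusted p = 0.255). Atp5h, the stalk subunit d of the ATP synthase, stood at 133, 186, 108, 187 and 199 CPM against 214, 328, 254, 216 and 231 CPM (-0.61 ± 0.26, adjusted p = 0.258). Ndufa12 (-0.57 ± 0.24, adjusted p = 0.249) and Atp5o, the stalk protein that confers oligomycin sensitivity (-0.56 ± 0.25, adjusted p = 0.261), had the same form. No-Target replicates 1 and 3 were the lowest libraries for both Ndufb7 and Atp5h, but the other 3 No-Target libraries also lay below all 5 wild-type libraries. The 328 CPM of Atp5h was in wild-type replicate 2, 1 of the 4 libraries described next, in which this gene stood high.

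A second group of libraries bears on single genes. In 4 libraries the number of reads aligned to several places was 0.177 to 0.190 per counted read. They are replicate 2 of each wild-type group, STAT5A replicate 3 and STAT5B replicate 2. The 5 libraries with many reads outside genes came next, at 0.200 to 0.219, and the remaining 18 stood at 0.250 to 0.295. Those 5 are thus also low in multi-mapped reads and lie nearer to the 4 than to the 18. Respiratory chain genes are known for many processed pseudogenes, copies of the mRNA pasted back into the genome, and reads matching both places are reported as multi-mapped. The principal transcript of each gene was therefore compared with all other GENCODE vM21 transcripts. A near-identical stretch, at least 95% identical over at least 100 bp elsewhere in the genome, was found for 25 of the 92 genes, 24 of them tested.

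In the 4 libraries, many of the genes with such a copy stood high. Against the other libraries of the same group, the median difference on the log2(CPM + 0.5) scale was 0.26 over the 24 genes with a copy and -0.03 over the 62 without. It exceeded 0.3 in 12 of the 24 and in 0 of the 62. It was above 0 in all 4 libraries for 13 of the 24 and for 0 of the 62. The genes named next were chosen after these values were seen.

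**Figure D5:**
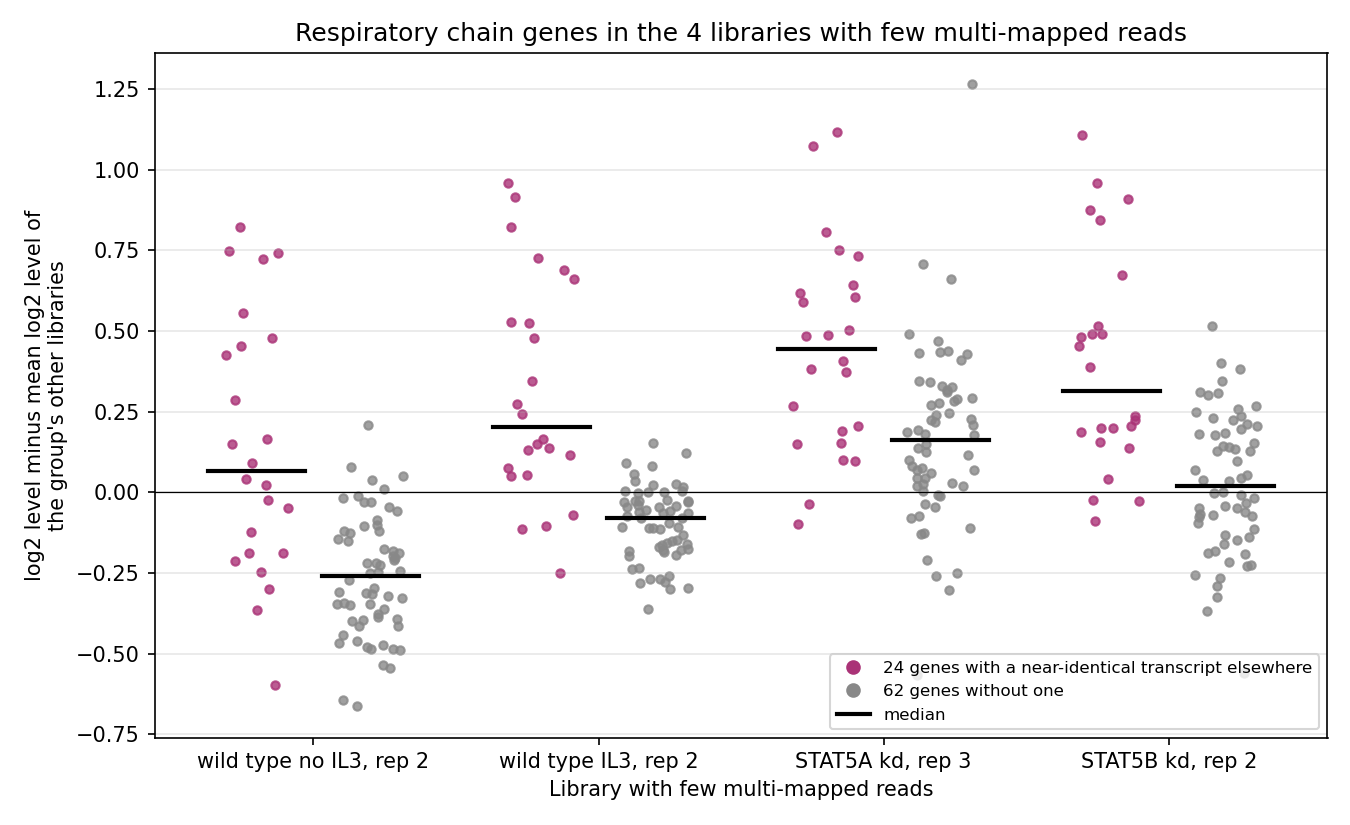
Difference of each tested respiratory chain gene from the mean of the other libraries of its group (log2(CPM + 0.5)) in the 4 libraries with few multi-mapped reads (kd, knockdown; rep, replicate). Genes with a near-identical transcript elsewhere (24, purple) have a higher median than those without (62, grey) in each library, and single genes overlap. Bars are medians.

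Cox7c, a small complex IV subunit, stood highest, with differences of 0.82, 0.96, 1.07 and 1.11 in deprived and stimulated wild type, STAT5A and STAT5B. Its level was 118 CPM in STAT5A replicate 3 against 55.7 and 55.8 CPM in replicates 1 and 2. Its closest copy, Gm10012 on chromosome 17, is 99.4% identical over 315 bp and has a row of its own in the tables. Atp5l (10 copies, 9 of them annotated pseudogenes; median difference 0.79), Uqcrb of complex III (3 copies; 0.79), Atp5g2 (2 copies; 0.69) and Ndufab1 (2 copies; 0.60) were high in 4 of 4 libraries. Atp5g1 (0.82) was too, although 8 of its 10 matches are other counted genes.

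Of the genes with a near-identical copy, 1 failed the filter: Ndufs5, a supernumerary subunit of complex I that is needed for the complex. It had 61 reads in all 27 libraries. A processed pseudogene, BC002163 on chromosome 16, matches it at 99.4% over 319 bp and collected 40 reads in its own row. Of the 61 reads, 38 were in the 4 libraries with few multi-mapped reads (7, 7, 14 and 10). The stretch is 46.9% of the Ndufs5 transcript, and whether reads set aside as multi-mapped account for its low count was not tested. For genes with copies, counts are uncertain where the authors' counting set multi-mapped reads aside. The STAT5A and STAT5B knockdowns hold 1 of the 4 libraries with few multi-mapped reads each, while their controls hold none of the 4. Among those controls, No-Target replicates 1 and 3 lay not far above the 4, at 0.209 and 0.212 per counted read. No-Target replicates 2, 4 and 5 stood at 0.263, 0.292 and 0.276. Stimulated wild type, which was compared with No-Target cells, holds 1 too.

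Most genes of the set moved together across the libraries. The Pearson correlation of each gene with the median of the others had a median of 0.94 over 27 libraries, with 74 of 86 above 0.8, and 0.84 over the 22 libraries, with 51 above 0.8. These correlations describe libraries that share depth and library class. Deprived replicate 3, with a median deviation of 1.06, is among the 22 libraries, which otherwise ran from -0.15 to 0.39. No correlations without it or for other genes are given. The genes that departed most were Ndufs1 (-0.29 over 27 and -0.11 over 22 libraries) and Ndufaf4 (-0.15 and -0.36). Cox6a2 (0.17) and Ndufa4l2 (0.50) follow with few reads, then Sdha (0.66) and Atp5s (0.67).

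The relation of transcript length to the changes inside the set differed between comparisons and was largest for IL3. No coefficients for other genes, or without deprived replicate 3, are given. Spearman's rho between length and log2 fold change over the 86 genes was 0.45 for IL3, -0.33 for STAT5A, -0.13 for STAT5B, -0.27 for LSD1 and 0.27 for HDAC3 knockdown. It was 0.14 for the No-Target comparison, -0.29 for STAT5A against STAT5B and -0.40 for LSD1 against HDAC3. Without the 5 libraries the coefficients were 0.46 for IL3, which loses no library in this setting. In the knockdowns they were -0.15 for STAT5A, 0.09 for STAT5B, -0.31 for LSD1 and -0.12 for HDAC3. They were -0.20 for No-Target, -0.29 for STAT5A against STAT5B and -0.09 for LSD1 against HDAC3, so the sign turned for STAT5B, HDAC3 and No-Target. Ndufs1 (2819 bp), Sdha (2900 bp) and Ndufaf4 (3632 bp) are among the long ones.

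Other genes of the pathway were examined by lists, with the same division of libraries beside them. Of 35 tested assembly factors outside the name rule, 0 were called in any of the 8 comparisons; 29 lay below 0 after IL3 (median -0.16), 24 above 0 under STAT5A, 25 above 0 under STAT5B, 17 above 0 under LSD1 and 28 below 0 under HDAC3 knockdown. Without the 5 libraries 28 lay below 0 after IL3, 14 above 0 under STAT5A, 16 above 0 under STAT5B, 19 above 0 under LSD1 and 14 below 0 under HDAC3 knockdown, and without deprived replicate 3 the IL3 median was -0.05. The 4 subunits and carriers with other names (Cyc1, Cycs, Usmg5 and Atpif1) gave 0 calls, with medians of -0.24 after IL3, 0.42 under STAT5A, 0.36 under STAT5B, 0.30 under LSD1 and -0.26 under HDAC3 knockdown. Without the 5 libraries these 4 genes had medians of 0.12, 0.11, 0.29 and 0.14 in the knockdowns in that order, and the IL3 median was -0.05 without deprived replicate 3. The 16 enzymes of pyruvate oxidation and the citric acid cycle also gave 0 calls, and their medians lay nearer to 0: -0.05 after IL3, 0.02 under STAT5A, 0.10 under STAT5B, -0.01 under LSD1 and -0.12 under HDAC3 knockdown. Without the 5 libraries they were -0.04, -0.07, 0.02, 0.04 and -0.07 in that order.

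Among 12 tested regulators of respiratory gene expression, including Nrf1, Gabpa and Tfam, 1 was called with all libraries, in LSD1 against HDAC3 knockdown, where 0.82% of all genes were. Pprc1, a coactivator of the PGC-1 family, stood at 54.5, 55.7 and 47.1 CPM under LSD1 and 268, 102 and 146 CPM under HDAC3 knockdown (log2 difference -1.72 ± 0.39, adjusted p = 0.0389). Without the 5 libraries, which leaves 2 LSD1 libraries and 1 HDAC3 library, it was -1.51 ± 0.43 with an adjusted p of 0.163. After IL3 the same gene had a log2 fold change of 1.02 ± 0.30 (adjusted p = 0.0560) with all libraries and of 1.02 ± 0.23 (adjusted p = 0.00874) without the 5. None of the 5 is wild type, so both fits compare the same wild-type libraries. They differ in the hairpin libraries that enter the shared estimate of spread. No other regulator was called in any of the 8 comparisons with all libraries.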

How the data were processed

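For each library the authors deposited 1 table of raw gene counts; its 5 summary lines entered no library size or test. Per the submitters' processing notes, DESeq2 1.2, HTSeq 0.5.4p5, TopHat2 2.0.10 and Trimmomatic 0.30 were used, with mm10 as build; order, counting mode and annotation are not given in the sources used here. Per the labels' protocols, libraries were made with a TruSeq kit from polyA RNA, and replicates are called biological. If cultures were not separate, p-values measure only the spread between these samples.

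All 27 libraries entered 1 edgeR quasi-likelihood fit (R 4.3.3, edgeR 4.0.16, limma 3.58.1) with a mean per group, trimmed-mean (TMM) factors and filterByExpr. P-values were adjusted over 12073 genes (Benjamini-Hochberg, threshold 0.05). Levels are TMM-scaled CPM. Fold changes are edgeR's; differences within groups are on log2(CPM + 0.5). Lengths are exons of APPRIS principal transcripts (GENCODE vM21, GRCm38; 6 genes without one use all exons). Copies were found with blastn and promoters taken from RefSeq. The fit was tested on simulated data.

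Members and lists were chosen with earlier results of these data known. Named genes are called genes, up to 4 per direction and comparison with no overlap and a mean of at least 5 CPM, the extremes of each complex, isoform pairs and the Sdh genes; others are named after their values were seen, and 1 gene is not reported here. Same-numbered wild-type libraries deviated together (r 0.406 to 0.747 in 5 of 5 pairs), so a replicate block was added there. In the other comparisons at most 2 of 3 pairs exceeded 0.1. No 2 replicates were copies (chi-square per degree of freedom 10.4 to 165 over 42 pairs). Alternatives were relative log expression (RLE) factors, total counts, no filter, DESeq2 1.42.0, 2 groups only, a threshold of 0.01, leaving out single libraries or library classes. Leaving out libraries for the other pathway lists, for Pprc1 and for the length correlations was chosen after seeing the data.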

Additional observations from a re-analysis of the deposited data

Results flagged for a closer look

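In the 3 groups of 5 libraries (both wild-type groups and No-Target), 9 of 51 checks found a library far from the others of its group, all 9 in wild type. Chance flags about 1 in 20 groups, and the checks share libraries. Deprived replicate 3 stood apart in 5 of them. Its median deviation over the tested genes was 1.06 on the log2 scale, against 0.16 to 0.39 in the other 4. Its levels were 718 CPM for Ndufb8 (others 360 to 452), 767 CPM for Uqcrh (332 to 374), 561 CPM for Uqcrq (164 to 270) and 1.19 CPM for Cox6a2 (0 to 0.206). Stimulated replicate 3 was high in share of reads (2.33% against 2.01 to 2.10%), in median deviation (0.30 against 0.11 to 0.13) and for Sdhd (327 CPM against 276 to 291). Ndufab1 was high in stimulated replicate 2 (51.0 CPM against 27.3 to 33.9), 1 of the libraries with few multi-mapped reads.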

How the results depend on the processing

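After IL3, 1 respiratory chain gene was called. With only the 2 groups compared there were 2 (Ndufaf4 and Atp5sl), with the replicate block 3, at a threshold of 0.01 there were 0, and leaving out single libraries gave 0 to 1; fewer libraries or a stricter threshold are part of those settings, and otherwise the cause was not tested. Ndufaf4 kept its direction in every setting run, with log2 fold changes of 0.74 to 1.00 when single libraries were left out and adjusted p of 0.00742 to 0.131 over all settings. It was lost without deprived replicates 1, 2, 4 or 5 (0.0644, 0.0673, 0.107 and 0.105) and without stimulated replicates 2, 3, 4 or 5 (0.0650, 0.0814, 0.131 and 0.0746). In the other 7 comparisons 0 genes of the set were called under every setting run, with the replicate block included. Medians under all settings ran from -0.38 to -0.11 for IL3, -0.08 to 0.41 for STAT5A, 0.01 to 0.42 for STAT5B, -0.13 to 0.32 for LSD1, -0.69 to -0.02 for HDAC3, and -0.42 to -0.11 for No-Target. They ran from -0.15 to 0.04 for STAT5A against STAT5B and 0.08 to 0.78 for LSD1 against HDAC3. Replicate numbers outside wild type share only a number. The 5 shallow libraries and the low reads of Cox6a2, Ndufa4l2 and Ndufs5 limit what could be detected.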
